A study of Homo sapiens with 12 samples.

Results

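Of the 12 RNA-seq libraries of this series 4 come from MAVER1, an established human cell line of mantle cell lymphoma, and they are the libraries described here. They were chosen by their labels: 2 libraries held ibrutinib at 6.25 µM, alone or with ironomycin at 250 nM. The other 2 did not, namely the control and ironomycin alone at 250 nM. The label of the control does not say whether it held a vehicle. All 4 cultures were harvested at 48 h. The series also holds 4 libraries of JEKO1 (ibrutinib at 0.5 µM, ironomycin at 50 nM) and 4 of JVM2 (ibrutinib at 1.5 µM, ironomycin at 250 nM) in the same layout. Every treatment of a line is 1 library, so the ibrutinib effect was read as 2 pairs that share no library: ibrutinib against control, and both drugs against ironomycin. No replicate cultures were sequenced. In edgeR's fit of the 4 MAVER1 libraries a p-value sets the change shared by the pairs against an estimated spread. That spread rested on 1 residual degree of freedom, the part the pairs do not share, and on 9.13 prior degrees of freedom drawn from all genes. A gene can thus be called although its pairs differ in size. In a fit of all 12 libraries the residual spread also came from JEKO1 and JVM2. Whether ironomycin altered the ibrutinib effect itself could not be tested.

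The B-cell receptor is a membrane immunoglobulin coupled to CD79A and CD79B. When it is engaged, the SRC-family kinase LYN and then SYK are activated, and BTK, a TEC-family kinase, activates the phospholipase PLCG2. From there calcium drives calcineurin and NFAT, diacylglycerol drives RAS, ERK and AP-1, and a further branch drives NF-kB. Inhibitory receptors such as CD72, CD22 and FCGR2B recruit the phosphatases PTPN6 (SHP-1) and INPP5D and hold the pathway back. Ibrutinib binds a cysteine of BTK covalently and is used to treat mantle cell lymphoma, a tumour of mature B cells with high cyclin D1. It also binds related kinases with the same cysteine, and the dose used in MAVER1 was the highest of the 3 lines. Ironomycin is a salinomycin derivative that holds iron in lysosomes.

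The 4 MAVER1 libraries held 38081238 to 38630809 counted reads, a narrow range, so read numbers are given per library below. All 12 B-cell markers were tested, with a summed level of 5601 to 7144 CPM (reads scaled to library size), and CCND1 held 153861 to 182992 reads in the 4 libraries. The mantle cell lymphoma gene SOX11 was present with 2003 to 6877 reads. CD200 had 0 reads in every library. Of the 13 matched T-cell and NK-cell markers none passed the filter, and the highest of them had 24 reads. Of 12 myeloid markers 2 passed, with a summed level of 3.19 to 3.77 CPM, and of 14 stromal and epithelial markers 4 passed, with 34.5 to 54.6 CPM.

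With ibrutinib in MAVER1, the nuclear receptor gene NR4A1, the phosphatase gene PTPN6, the B-cell surface gene CD180 and the transcription factor gene SPIB fell. The early B-cell genes RAG1 and VPREB1 and the pro-apoptotic gene HRK rose. BMF, also pro-apoptotic, rose in both pairs, but its call was lost in other fits given below. Of 14348 genes with at least 20 reads in at least 2 of the 4 libraries, 87 fell (0.606%) and 38 rose (0.265%) at an adjusted p under 0.05 in edgeR's quasi-likelihood test with ironomycin and ibrutinib as terms. The median log2 fold change was −0.92 for the fallen genes and 0.78 for the risen ones, and 39 fell and 14 rose by at least 1. Scaling by library totals in place of TMM gave 95 falls and 91 rises, so the split between falls and rises depended on the scaling. All of the 87 and 38 genes were among those. With edgeR's own filter on low counts 46 fell and 9 rose. At an unadjusted p under 0.05 there were 1910 genes, and in the same fit the ironomycin term passed the adjusted threshold for 6666 genes.

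By size alone, 138 genes (0.962%) were lower and 153 (1.07%) were higher by a log2 ratio of at least 0.5 in both pairs. Of these, 68 and 26 were among the called genes. In the 11761 genes whose mean log2 CPM was 1 or more, 83 were lower and 50 higher by that size in both pairs. The fall was the commoner direction in these better measured genes, and the excess of rises over all genes lay in those with few reads. Across the 14348 genes the log2 ratios of the pairs correlated at Pearson's r = 0.29, and at 0.40 across the 11761 (genes are not independent replicates). Of the 125 called genes 83 changed more in the pair with ironomycin. The same share over all genes was not taken, so this count has no background. Lower in both pairs at any size were 30.5% of all genes, and higher in both 29.7%.

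**Figure D1:**
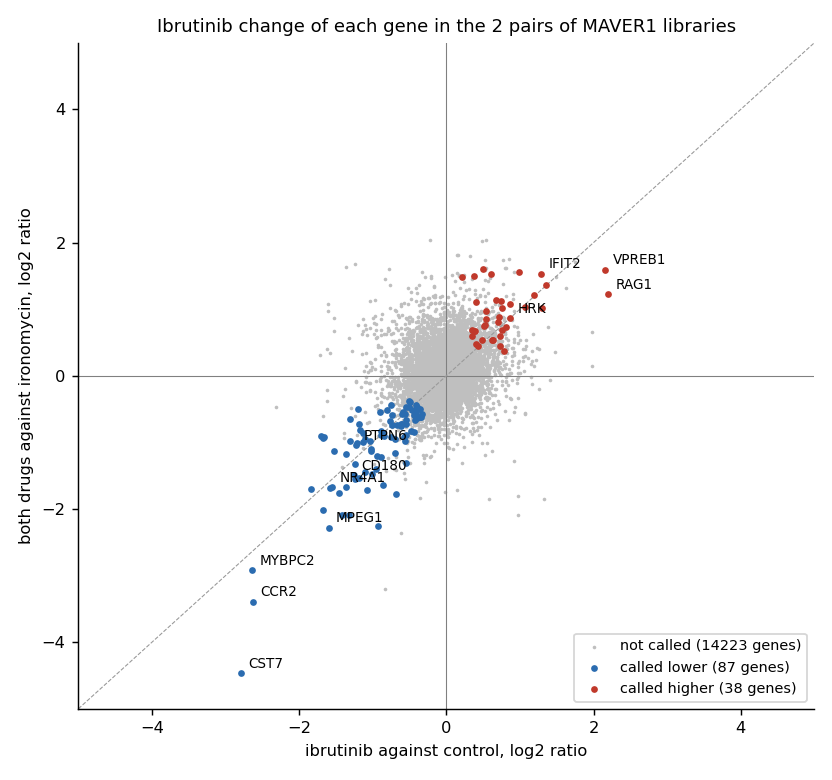
Each point is 1 of the 14348 genes, with the log2 ratio of ibrutinib against control on the x axis and of both drugs against ironomycin on the y axis (TMM-normalised CPM, prior count of 2); the dashed line marks equal ratios. The 87 called falls (blue) lie in the lower left quadrant and the 38 called rises (red) in the upper right, with RAG1 and VPREB1 farthest to the right.

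The first group of falls were immediate early genes, which are switched on within minutes to hours of receptor signalling, and genes of ERK feedback. Of 38 tested members 4 fell and 0 rose, against 0.606% and 0.265% of all genes. In both pairs 23 were lower and 7 higher, against 30.5% and 29.7% of all genes, and the list's median log2 fold change was −0.22 against 0.00 for all genes tested. NR4A1 (ENSG00000123358), an orphan nuclear receptor that is a common reporter of antigen receptor signalling, had 1757 reads in control and 616 with ibrutinib, and 2020 reads with ironomycin and 641 with both drugs. Its log2 fold change was −1.61 (SE 0.10, adjusted p = 6.98e-05), and the 2 libraries with ibrutinib were nearly level and lay well below the 2 without it.

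NR4A3, of the same receptor family, went from 124 to 68 reads and from 275 to 150 (log2 fold change −0.90, SE 0.17). EGR2, a zinc finger factor induced by calcium and ERK signals, went from 66 to 32 and from 193 to 98 (−1.03, SE 0.20). DUSP5, a phosphatase that acts on nuclear ERK, went from 74 to 31 and from 128 to 43 (−1.46, SE 0.23). In NR4A3 and EGR2 the library with both drugs was above the control, so that their groups with and without ibrutinib overlapped, and the fall was read within the pairs. NR4A1 kept its call in DESeq2 and in the fit of all 12 libraries. NR4A3, EGR2 and DUSP5 lost theirs in DESeq2 (adjusted p = 0.326, 0.479 and 0.186) and in the fit of all 12 libraries (0.413, 0.0835 and 0.0702). NR4A3 (adjusted p = 0.0886) and EGR2 (0.0941) also lost theirs with edgeR's own filter, and EGR2 with a robust prior (0.0568). MYC, in contrast, had 22195 and 23064 reads without and with ibrutinib alone and 21720 and 22130 with ironomycin, and did not pass the test (0.01, adjusted p = 0.965). Other members that did not pass were JUN (log2 ratios −0.43 and −0.95), JUNB (−0.52 and −0.23), ZFP36 (−0.37 and −0.40) and DUSP6 (0.11 and −0.25). MYC and these members, like the uncalled genes given by name for the lists below, were chosen after their values were seen.

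Most members of the pathway that ibrutinib acts on were not called at the RNA level. Of 35 tested genes of proximal B-cell receptor signalling 1 fell and 0 rose (0.606% and 0.265% of all genes), with a median log2 fold change of −0.06. BTK (ENSG00000010671) itself had 7997 and 7054 reads in control and ibrutinib and 7264 and 7224 in ironomycin and both drugs, a log2 fold change of −0.12 (SE 0.08, adjusted p = 0.559). LYN was lower by similar log2 ratios in both pairs (−0.37 and −0.39) and missed the threshold (adjusted p = 0.0714). SYK, PLCG2, CD79A and CD79B were not called. The gene that fell was NFATC1, a calcium-activated transcription factor that is also induced by receptor signals: it had 1149 reads in control and 891 with ibrutinib, and 1405 with ironomycin and 917 with both drugs (−0.52, SE 0.10, adjusted p = 0.0463). Its call was lost with edgeR's own filter (adjusted p = 0.106), in DESeq2 (0.0904) and in the fit of all 12 libraries (0.120). Its promoter is shown because it holds 1 copy of the NFAT motif, the letters TGGAAAA on either strand, whose last base lies 34 bases before the start of transcription. The 250 bases before the start are given 5′ to 3′ (RefSeq, GRCh38.p14, chr18:79395680-79395929, plus strand), with the motif in capitals, here as its reverse complement.
NFATC1 promoter: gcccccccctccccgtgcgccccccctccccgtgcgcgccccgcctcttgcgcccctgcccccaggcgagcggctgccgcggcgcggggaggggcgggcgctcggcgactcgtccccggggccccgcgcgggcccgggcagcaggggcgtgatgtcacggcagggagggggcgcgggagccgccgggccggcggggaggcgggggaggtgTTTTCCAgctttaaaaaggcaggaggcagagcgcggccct

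Among 17 tested kinases that ibrutinib is known to bind, FGR fell and none rose, against 0.606% and 0.265% of all genes. FGR, a SRC-family kinase, had 190 reads in control and 88 with ibrutinib, and 53 with ironomycin and 26 with both drugs (−1.11, SE 0.21, adjusted p = 0.0454). Both values with ironomycin were below those without it, and the call was lost with edgeR's own filter (adjusted p = 0.0861), in DESeq2 (0.436) and in the fit of all 12 libraries (0.0542). BLK (log2 ratios −0.38 and −0.14), JAK3 (0.16 and 0.54), YES1 (0.45 and 0.23) and TEC (−0.11 and −0.77) did not pass, nor did CSK, LCK, SRC, ERBB2, RIPK2, MAP2K7, FRK, FYN or PTK6.

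Brakes of the receptor were among the falls. Of 22 tested inhibitory B-cell receptors and phosphatases 6 fell and 0 rose, against 0.606% of all genes, 15 were lower in both pairs and 2 higher, and the median log2 fold change was −0.24. PTPN6 (ENSG00000111679), the phosphatase SHP-1, had 4535 reads in control and 1995 with ibrutinib, and 1764 with ironomycin and 868 with both drugs (−1.14, SE 0.09, adjusted p = 0.000299). With ironomycin alone PTPN6 was also below the control, and the library with both drugs was the lowest of the 4. CD22, an inhibitory lectin that recruits PTPN6, was not called and went from 2122 to 1822 reads and from 671 to 936, opposite ways in the pairs (0.08, SE 0.14, adjusted p = 0.855).

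CD72, a receptor that binds PTPN6, went from 1794 to 1020 reads and from 4005 to 2160 (−0.88, SE 0.08, adjusted p = 0.00177). Ironomycin alone was the highest library for CD72 and ibrutinib alone the lowest. FCGR2B, the inhibitory IgG receptor, went from 1795 to 1012 and from 498 to 279 (−0.86, SE 0.10), with nearly the same ratio in both pairs. Its close copy FCGR2C also fell (from 610 to 337 and from 141 to 80 reads), and reads of such near-identical genes may have been shared between them. FCRL2, an Fc receptor-like gene of B cells, went from 438 to 139 and from 66 to 34 (−1.47, SE 0.21), FCRL5 from 1807 to 1139 and from 852 to 448 (−0.82, SE 0.10) and CD5 from 1627 to 1144 and from 856 to 628 (−0.51, SE 0.09). CD5, a scavenger receptor family protein that dampens receptor signals, is at the same time a marker of mantle cell lymphoma. Of these 6 genes CD5 lost its call with edgeR's own filter (adjusted p = 0.0891), in DESeq2 (0.0940) and in the fit of all 12 libraries (0.0739).

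Among the falls named by size were MPEG1, CCR2 and CD180, which are on no signalling list. MPEG1 (ENSG00000197629), a pore-forming protein of phagocytes and B cells, had 2508 reads in control and 849 with ibrutinib, and 5525 with ironomycin and 1152 with both drugs (−1.95, SE 0.14, adjusted p = 0.00029). CCR2 (ENSG00000121807), a chemokine receptor, had 22 and 2 reads without ironomycin and 360 and 33 with it (−3.46, SE 0.26, adjusted p = 0.000296). With 2 reads the ratio of the first pair was 8.85% of control (exact 95% interval of the counts 1.01 to 36.0%, counting error only), and most of the reads came from the ironomycin pair. CD180 (ENSG00000134061), a Toll-like receptor homologue of B cells, went from 1062 to 456 reads and from 1574 to 566 (−1.38, SE 0.11, adjusted p = 0.000296). CD180 was lower in both libraries with ibrutinib than in either library without it.
The promoters of CD180 and CCR2 are shown because they were the only ones of called genes to hold both the AP-1 motif (TGANTCA) and the NFAT motif (TGGAAAA). CD180 lies on the minus strand (chr5:67196800-67197049) and CCR2 on the plus strand (chr3:46353861-46354110), both RefSeq and GRCh38.p14. In each the 250 bases before the start run 5′ to 3′, with the AP-1 and then the NFAT motif in capitals.
CD180 promoter: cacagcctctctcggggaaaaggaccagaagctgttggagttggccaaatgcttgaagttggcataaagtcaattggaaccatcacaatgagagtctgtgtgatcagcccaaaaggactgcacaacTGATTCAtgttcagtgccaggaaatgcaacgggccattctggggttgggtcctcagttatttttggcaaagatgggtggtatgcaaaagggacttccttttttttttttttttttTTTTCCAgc
CCR2 promoter: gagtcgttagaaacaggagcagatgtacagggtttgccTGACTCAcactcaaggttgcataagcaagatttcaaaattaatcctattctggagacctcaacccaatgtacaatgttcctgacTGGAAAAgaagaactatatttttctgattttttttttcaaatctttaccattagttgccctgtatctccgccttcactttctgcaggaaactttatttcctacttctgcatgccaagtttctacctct

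The AP-1 motif ends 118 bases before the start in CD180 and 206 in CCR2, and the NFAT motif 3 and 122 bases before it. Over the 10134 tested genes with a RefSeq promoter, 3.63% hold the AP-1 letters and 3.51% the NFAT letters in these 250 bases on either strand. Of 60 fallen genes with a promoter 7 (11.7%) hold AP-1, namely CCR2, CD180, FCER2, FCGR2B, FCRL2, HDAC9 and TOR4A, and of 29 risen genes 2 (6.9%), LYST and PLEKHB1. NFAT letters stand in 6 of 60 fallen (10%), namely CCR2, CD180, FMOD, NFATC1, NPM3 and SLC7A7, and in 0 of 29 risen promoters. The PU.1 and SPIB letters GAGGAAGT were in 2.24% of all, 3 of 60 fallen and 0 risen promoters, the E-box CACGTG in 9.1%, 2 and 1, and the EGR letters GCGGGGGCG in 7.55%, 1 and 3. The CRE letters TGACGTCA were in 3.09% of all promoters and in 0 of either set. The MEF2 letters CTATTTATA were in 0.247% and in 1 fallen promoter, that of SPIB, and the NF-kB letters GGGACTTTC in 0.326% and in 1 risen promoter, that of LTB. The genes are named because they are few, after their values were seen. A match is a run of letters and not a measured site.

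PDCD1, the inhibitory receptor PD-1, went from 150 to 50 reads and from 226 to 70 (−1.67, SE 0.19). SLA, an adaptor that damps antigen receptor signals, went from 465 to 172 and from 98 to 28 (−1.58, SE 0.18), and HCST, the DAP10 adaptor, from 407 to 144 and from 232 to 107 (−1.35, SE 0.16). MYBPC2 (ENSG00000086967), a myosin-binding protein of fast skeletal muscle, went from 368 to 59 and from 573 to 75 reads (−2.83, SE 0.16, adjusted p = 6.98e-05). Its libraries with and without ibrutinib did not overlap. SCARA5, a ferritin-binding scavenger receptor, went from 239 to 67 and from 72 to 21 (−1.85, SE 0.21). The other falls named by size were the microtubule protein MAP2 (−1.32) and the non-coding genes LINC02909 (−1.57) and LINC02245 (−1.28). MAP2 and LINC02245 lost the call in DESeq2 (adjusted p = 0.120 and 0.111), and SLA and LINC02909 in the fit of all 12 libraries (0.0586 and 0.108). CST7, an inhibitor of lysosomal proteases, had 25 and 2 reads without ironomycin and 217 and 8 with it; its mean level was under the limit for naming, and it was chosen after its values were seen.

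**Figure D2:**
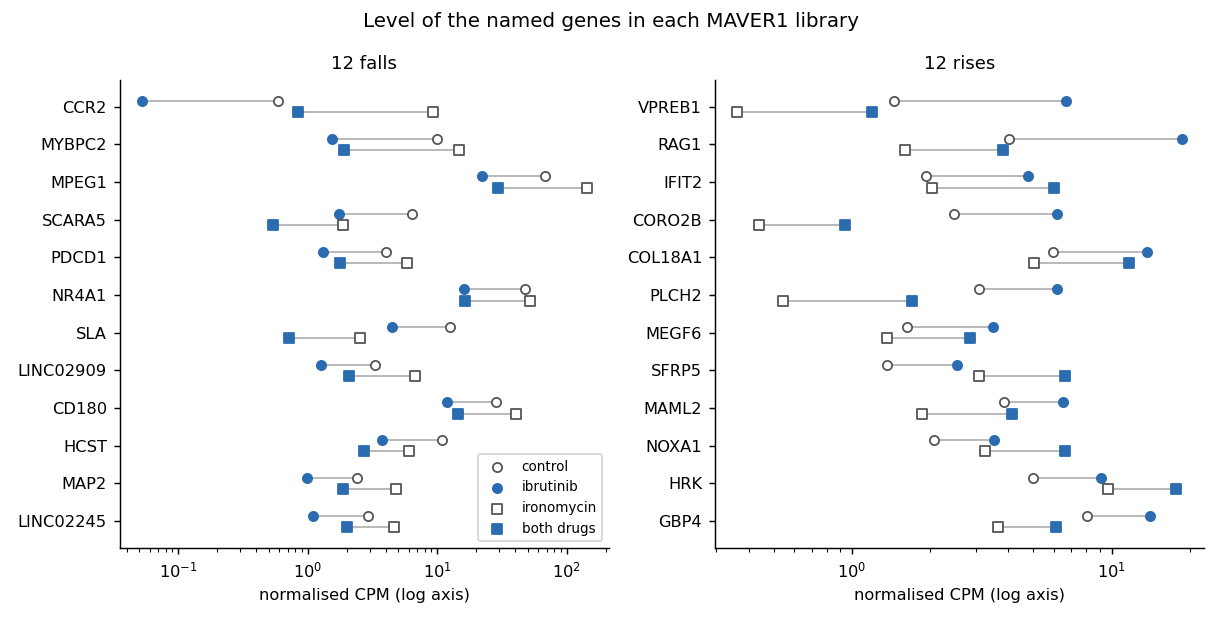
Level of the 12 falls (left) and 12 rises (right) named by size in each of the 4 MAVER1 libraries, in TMM-normalised CPM on a log axis. Circles are the pair without ironomycin and squares the pair with it, and filled symbols have ibrutinib. Every filled symbol lies to the left of its partner in the falls and to the right in the rises. Among the rises, both squares lie below both circles in level for VPREB1, RAG1, CORO2B, PLCH2 and GBP4.

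Of 37 tested B-cell and plasma cell transcription factors 2 fell and 0 rose, against 0.606% and 0.265% of all genes (median 0.04). SPIB (ENSG00000269404), an ETS factor of mature B cells, had 7940 reads in control and 3592 with ibrutinib, and 5418 with ironomycin and 3326 with both drugs (−0.96, SE 0.11, adjusted p = 0.00332). SPIB was lower in both libraries with ibrutinib than in either library without it, and the first pair showed the larger change. IRF8, which acts with ETS factors in B cells and myeloid cells, went from 2988 to 1840 and from 1192 to 801 reads (−0.67, SE 0.09, adjusted p = 0.00853). Of 10 tested genes on the mantle cell lymphoma list, not all of them positive markers of that tumour, 3 fell, against 0.606% of all genes. They were CD5 and, at low level, FCER2 and FMOD. FCER2, the IgE receptor CD23, went from 47 to 23 and from 97 to 34 reads (−1.34). FMOD, fibromodulin, went from 45 to 16 and from 103 to 23 (−1.91). In DESeq2 none of the 3 was called (CD5 adjusted p = 0.0940, FCER2 0.648, FMOD 0.142). CD5 (adjusted p = 0.0891) and FCER2 (0.0941) also lost the call with edgeR's own filter. CCND1 (0.10, adjusted p = 0.627) and SOX11 (0.22, adjusted p = 0.303) did not pass.

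NF-kB targets had no common direction in MAVER1. Of 36 tested members 2 fell and 1 rose, against 0.606% and 0.265% of all genes, 13 were lower and 13 higher in both pairs, and the median log2 fold change was 0.01. NFKBID, an atypical nuclear IkB protein, fell from 958 to 426 and from 895 to 640 reads (−0.85, SE 0.15, adjusted p = 0.0366), and CD86, a costimulatory ligand, from 236 to 75 and from 26 to 13 (−1.54, SE 0.24, adjusted p = 0.0191). LTB, lymphotoxin beta, rose from 1134 to 1679 and from 159 to 274 (0.62, SE 0.11, adjusted p = 0.0417). LTB was also the only called gene of 16 tested in the non-canonical NF-kB and TNF-family receptor list (median −0.01). Over all genes 0.265% rose and 0.606% fell. NFKBID lost its call with edgeR's own filter (adjusted p = 0.0937), a robust prior (0.0637) and all 12 libraries (0.318), CD86 in DESeq2 (0.168), and LTB with edgeR's own filter (0.0873), in DESeq2 (0.0705) and with all 12 libraries (0.120). NFKBIA, NFKB1, REL, TNFAIP3, BIRC3 and IRF4 were not called.

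The largest rises were in genes of early B cells. VPREB1 (ENSG00000169575), a part of the surrogate light chain of the pre-B-cell receptor, went from 54 to 255 reads and from 14 to 47 (2.06, SE 0.23, adjusted p = 0.00332). RAG1 (ENSG00000166349), the recombinase of immunoglobulin gene rearrangement, went from 150 to 716 and from 62 to 150 (1.85, SE 0.21, adjusted p = 0.00361). Ibrutinib alone was by far the highest library for both, and the library with both drugs was close to the control. VPREB3, a small relative of the surrogate light chain, went from 1160 to 1690 and from 400 to 1239 reads (1.02, SE 0.20, adjusted p = 0.0498). It was the 1 called gene of the 12 B-cell markers, against 0.265% of all genes that rose. That call was lost with edgeR's own filter (adjusted p = 0.137), a robust prior (0.242), DESeq2 (0.93) and all 12 libraries (0.0989). RAG1 was the 1 called gene of 38 tested that FOXO factors drive or that PI3K and AKT restrain, against 0.265% of all genes. The list had 22 members higher and 5 lower in both pairs (29.7% and 30.5% of all genes) and a median of 0.16. RAG2 (log2 ratios 0.83 and 0.35), GADD45A (0.34 and 0.59) and KLHL24 (0.29 and 0.48) did not pass. DEPP1, an autophagy-linked gene that FOXO factors induce, was not on the list; it went from 1406 to 2245 and from 488 to 723 reads (0.59, SE 0.09, adjusted p = 0.0197) and was chosen after its values were seen. Its promoter is shown because it holds the FOXO motif GTAAACA, in capitals, ending 174 bases before the start (RefSeq, GRCh38.p14, chr10:44978810-44979059, minus strand, 5′ to 3′). Those letters are in 1.93% of all promoters, in 2 of 29 risen (DEPP1 and LTB) and in 3 of 60 fallen ones.
DEPP1 promoter: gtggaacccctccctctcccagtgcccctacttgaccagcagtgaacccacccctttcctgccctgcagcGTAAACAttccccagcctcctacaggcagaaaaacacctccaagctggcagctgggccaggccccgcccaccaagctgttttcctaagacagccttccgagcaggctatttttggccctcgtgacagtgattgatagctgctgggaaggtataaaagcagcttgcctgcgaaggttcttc

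Of 15 tested genes of the BCL2 family 2 rose and 0 fell, against 0.265% and 0.606% of all genes, both of them BH3-only proteins, which promote apoptosis by binding the protective members. HRK (ENSG00000135116) went from 186 to 350 reads and from 375 to 693 (0.87, SE 0.13, adjusted p = 0.0129), nearly the same ratio in both pairs. BMF (ENSG00000104081) went from 821 to 1289 and from 930 to 2718 (1.08, SE 0.17, adjusted p = 0.0197), with the larger ratio under ironomycin. BMF lost its call with edgeR's own filter (adjusted p = 0.0652), a robust prior (0.171), DESeq2 (0.612) and all 12 libraries (0.0559), and HRK kept its call in those 4 fits. The library with both drugs was the highest of the 4 for both genes. BCL2L11, which encodes BIM, had log2 ratios of 0.20 and 0.28 and did not pass (adjusted p = 0.241), nor did BCL2, MCL1, BCL2L1 or BAX.

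Smaller groups of rises followed. Of 43 tested interferon-stimulated genes 2 rose and 0 fell, against 0.265% and 0.606% of all genes (median 0.07): IFIT2, an RNA-binding antiviral protein, went from 72 to 183 and from 79 to 236 reads (1.43, SE 0.18), and GBP4, a guanylate-binding protein, from 299 to 540 and from 142 to 241 (0.78, SE 0.14). Both moved alike in the pairs, but IFIT2 stood at like levels with and without ironomycin and GBP4 at a lower level with it. GBP4 lost its call with edgeR's own filter (adjusted p = 0.0713), in DESeq2 (0.134) and with all 12 libraries (0.0811). Of 27 tested p53 targets 1 rose and 0 fell, against 0.265% and 0.606% of all genes. In both pairs 10 were higher and 5 lower, and the median was 0.05. The called gene was TP53INP1, which p53 induces and which takes part in autophagy (1591 to 2714 and 6455 to 8976 reads, 0.59, SE 0.09). COL18A1, the source of endostatin, went from 222 to 525 and from 194 to 458 (1.21, SE 0.13, adjusted p = 0.00327), with similar levels in the 2 libraries of each ibrutinib state. The other rises named by size were CORO2B (1.26), PLCH2 (1.20), MEGF6 (1.08), SFRP5, a secreted WNT antagonist (1.01), MAML2, a coactivator of Notch (0.93), and NOXA1, an activator of NADPH oxidase (0.91). All 6 of these lost the call with edgeR's own filter (adjusted p = 0.0595 to 0.0961) and in DESeq2 (0.151 to 0.456). TP53INP1 lost it with that filter (0.0552). Calls lost in the fit of all 12 libraries are not given for every named gene.

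In the remaining lists no gene was called at the adjusted threshold in edgeR, and the direction within a list is given as counts. The lists named here were chosen after their values were seen. Of 59 tested MYC targets and ribosome biogenesis genes 45 were lower and 2 higher in both pairs (median −0.15), of 52 nuclear-encoded respiratory chain subunits 37 and 1 (−0.15), and of 13 protein-coding genes of the mitochondrial genome 11 and 0 (−0.33). Of 33 genes of cholesterol synthesis and uptake 20 were lower and 4 higher (−0.09), and of 45 hypoxia targets and glycolytic genes 24 and 6 (−0.12). These were small shifts over many members, against 30.5% lower and 29.7% higher among all genes. The unfolded protein response went the other way, with 24 of 37 higher and 0 lower in both pairs (0.15). Other lists without a call leaned less. Of 41 lysosomal genes 14 were lower and 12 higher in both pairs. For 19 chemokines and homing receptors the counts were 8 and 7, and for 18 iron genes 6 and 3. Genes of a list are not independent of one another, and these counts carry no test.

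The medians of the pairs were not equal, and the lists given next were chosen after their values were seen. The 53 genes of DNA replication and nucleotide supply had a median log2 ratio of 0.02 for ibrutinib alone and −0.32 for both drugs against ironomycin, and the 55 mitosis and spindle genes 0.11 and −0.31. For the mitochondrial genome the medians were −0.13 and −0.47, and for the unfolded protein response 0.03 and 0.28. Of the proliferation genes 20 of 53 and 10 of 55 were lower in both pairs, with 0 and 1 higher. Among all genes 30.5% were lower and 29.7% higher in both pairs. The cytosolic ribosomal proteins (−0.11 and −0.01), the MHC class I genes (−0.02 and 0.06) and the MHC class II genes (−0.07 and −0.00) had medians near 0 in both pairs. With 1 library at each corner, the difference between the pairs has no test, and in bulk RNA fewer cells of a kind and less RNA per cell cannot be told apart.

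**Figure D3:**
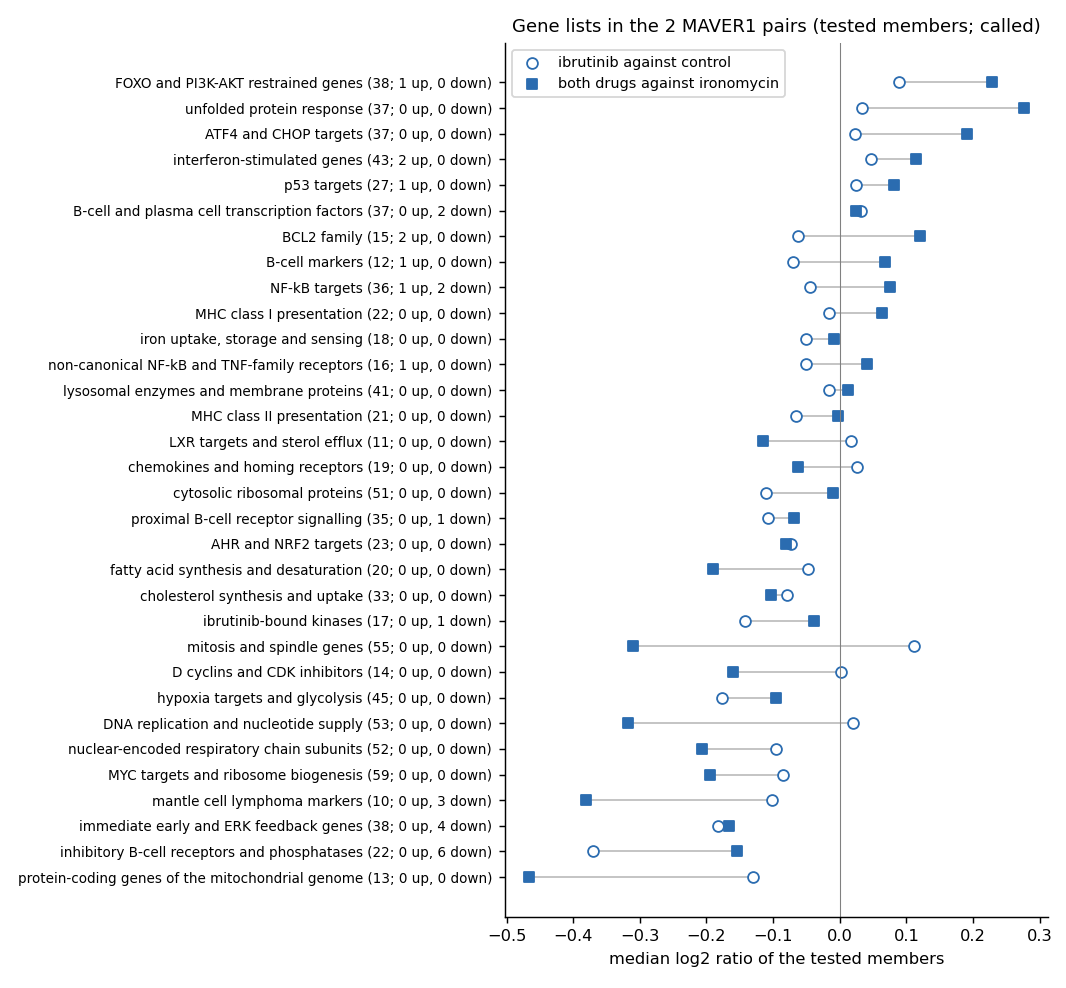
Median log2 ratio over the tested members of each gene list with at least 10 of them, for ibrutinib against control (open circles) and both drugs against ironomycin (filled squares). The numbers beside each name are the tested members and those called higher and lower: inhibitory B-cell receptors (6 down) and immediate early genes (4 down) lie left of 0 in both pairs, and the mitosis and DNA replication lists lie at or above 0 in 1 pair and at −0.31 and −0.32 in the other.

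JEKO1 and JVM2 have libraries of their own, so the pair ratios of the genes found in MAVER1 were read there in other libraries. Line and dose varied together and cannot be told apart. Calls in JEKO1 and JVM2 came from a fit of all 12 libraries, whose spread includes MAVER1. Those calls are therefore not independent of the choice of genes in MAVER1. Of the 87 fallen genes 85 had enough reads in JEKO1, and 80 of these were lower in both JEKO1 pairs, against 32.3% of all genes. In the JEKO1 term of a fit over all 12 libraries 54 of the 85 fell at the same threshold, against 3.79%, and the median log2 fold change was −0.69. Of the 38 risen genes 33 had reads in JEKO1, 25 were higher in both pairs (31.4% of all genes were) and 15 were called there (2.48% of all), with a median of 0.62. No gene called in MAVER1 was called in the other direction in JEKO1.

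Values were smaller in JVM2. Of 68 fallen genes with reads 44 were lower in both pairs (33.4% of all genes), 16 were higher in both, 3 were called (0.109%) and the median was −0.17. Of 24 risen genes 11 were higher in both pairs (33.3%), 6 were lower in both, 0 were called (0.0312%) and the median was 0.14. JVM2 had few calls over all genes, 14 lower and 4 higher, against 514 and 336 in JEKO1. Among genes with reads in all 3 lines, 41 of 67 fallen genes were lower in both pairs of JEKO1 and of JVM2, against 13.9% of all genes, and 5 of 21 risen genes were higher in both pairs of each, against 12.2%.

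Single genes showed both patterns. NR4A1 had log2 ratios of −1.43 and −1.01 in JEKO1 and −1.06 and −0.53 in JVM2, and EGR2 −3.25 and −2.47 in JEKO1 and −1.98 and −1.78 in JVM2. PTPN6 was lower in JEKO1 (−2.16 and −2.85) and had ratios of −0.62 and −0.50 in JVM2, where it did not pass (adjusted p = 0.239). RAG1 rose in JEKO1 (2.17 and 1.93) and VPREB1 too (2.18 and 1.02), and neither had enough reads in JVM2. SPIB, in contrast, had ratios of −0.05 and −0.05 in JEKO1 and 0.45 and 0.25 in JVM2, and IRF8 −0.10 and 0.22 in JEKO1. BMF had 0.10 and 0.33 in JEKO1 and −0.49 and 0.02 in JVM2, while HRK rose in JEKO1 (0.85 and 1.17). The NF-kB target list had a median of −0.72 in JEKO1 and 0.13 in JVM2.

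The difference of the ibrutinib effect between MAVER1 and the mean of JEKO1 and JVM2 passed the threshold for 4 genes of 14348 (0.0279%). An unadjusted p under 0.05, which makes no allowance for the 14348 tests, was found for 805 and is not read as a difference. CCR2 fell more in MAVER1, by a difference of −2.87 (SE 0.28, adjusted p = 0.0216), with log2 fold changes of −0.40 in JEKO1 and −0.76 in JVM2. MYBPC2 also fell more (−2.33, SE 0.22, adjusted p = 0.0216), against −0.26 in JEKO1 and −0.73 in JVM2. NAPSB, a transcribed pseudogene of the aspartic protease napsin A, went from 1715 to 707 and from 167 to 85 reads in MAVER1 (−1.21) and differed by −0.998 (SE 0.11, adjusted p = 0.0389). FCRL5 was the 1 that fell less in MAVER1: −0.82 there, −2.06 in JEKO1 and −1.84 in JVM2, a difference of 1.13 (SE 0.13, adjusted p = 0.0389). SPIB and CLECL1P, the next 2 by p among genes called in MAVER1, had adjusted p-values above the threshold. The level without ibrutinib differed as well: CCR2 had 0.59 CPM in MAVER1 control, 20.7 in JEKO1 and 1.17 in JVM2, and MYBPC2 9.87, 29.2 and 2.33.

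**Figure D4:**
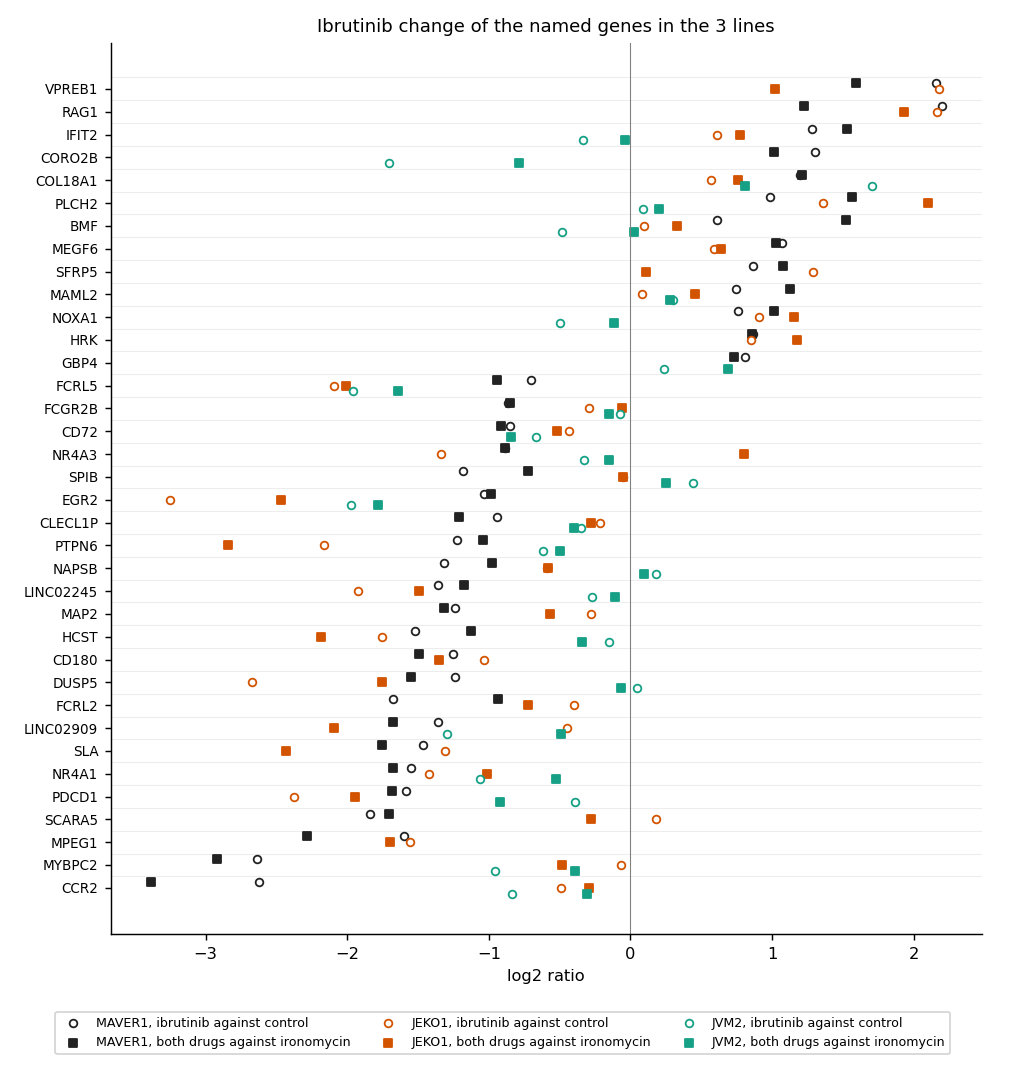
Log2 ratio of ibrutinib against control (open circles) and of both drugs against ironomycin (filled squares) for named genes in MAVER1 (black), JEKO1 (orange) and JVM2 (green); a line with under 20 reads in 3 or more of its libraries has no symbol. NR4A1, EGR2 and PTPN6 lie left of 0 in all 3 lines, whereas CCR2 and MYBPC2 lie far to the left in MAVER1, with the other lines at −0.96 or above.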

How the data were processed

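The authors deposited 1 table of raw counts of reads per Ensembl gene (63677 genes, 12 libraries, no normalization; columns of other samples: 0). Polyadenylated RNA was sequenced paired-end from a stranded kit. The submitters' processing notes name STAR, DESeq2 and GRCh37 without role or version. The counter, the annotation release and the use of strand are not given in the sources used here, so overlapping, antisense and near-identical genes are uncertain. Symbols were matched for 39699 genes from a table of Ensembl names, and 13228 of the 14348 tested genes have one.

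The 4 MAVER1 libraries were fitted in edgeR 4.0.16 (R 4.3.3; TMM, quasi-likelihood F-test, terms for ironomycin and ibrutinib, 1 residual and 9.13 prior degrees of freedom). Genes needed at least 20 reads in at least 2 of the 4 libraries. A gene was called at a Benjamini-Hochberg adjusted p under 0.05 over all genes tested, with the same sign in both pairs. The SE is the absolute log2 fold change divided by the square root of F. Log2 ratios of single pairs used TMM-scaled CPM with a prior count of 2. The JEKO1 and JVM2 terms and the difference between lines came from a fit of all 12 libraries with line, ironomycin within line and ibrutinib within line as terms (3 residual and 6.04 prior degrees of freedom). Both fits were also run on counts drawn from the fitted model with known changes added. The draws held no joint effect of the drugs and no spread particular to a gene, so they do not test for either. Library depth was 35448523 to 38630809 reads over the series.

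Named were the 12 called falls and 12 called rises with the largest smaller ratio of the pairs (symbol known, mean of at least 1 log2 CPM), kinases that ibrutinib binds, up to 4 called members of each of 35 gene lists, CD22 and PTPN6, and up to 6 called genes with the lowest p between lines. The members, lists and motifs were chosen with earlier results of these data known. Promoters are the 250 bases before the RefSeq start in GRCh38.p14, of which 10134 tested genes have one. Alternatives were other scalings, filters, tools, terms and libraries left out, and DESeq2 1.42.0. Plots were drawn with matplotlib 3.10.9 in Python 3.11.15. A few genes that the rule names are not reported here. Proteins, growth and other assays of the study were not analysed here.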

Additional observations from a re-analysis of the deposited data

Results flagged for a closer look

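The ibrutinib effect of 4 genes differed between MAVER1 and the mean of the other lines in edgeR's test of the difference over all 12 libraries. CCR2 differed by −2.87 on the log2 scale, MYBPC2 by −2.33 and NAPSB by −0.998, so that these fell further in MAVER1, and FCRL5 differed by 1.13, so that it fell further in the other lines. The lines also differed in ibrutinib dose and, for JEKO1, in ironomycin dose, which cannot be told apart from the line. Against JEKO1 alone NAPSB was not called (adjusted p = 0.098), and against JVM2 alone CCR2 and MYBPC2 (both 0.074) and FCRL5 (0.091) were not.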

How the results depend on the processing

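With 1 library per treatment and 1 residual degree of freedom, the number of calls moved with the treatment of low counts and with the tool. In place of 87 falls and 38 rises, edgeR's own filter (15802 genes) gave 46 and 9, of which 45 and 9 are shared, DESeq2 65 and 17, and all 12 libraries in 1 fit 63 and 19. Library totals gave 95 and 91. With no filter (28047 genes) edgeR called 0 falls and 0 rises (1761 genes at an unadjusted p under 0.05, lowest adjusted p = 0.0595), and with no ironomycin term 0 and 0 (100 genes at p under 0.05). Requiring a log2 fold change of at least 1, added after seeing the data, left 39 and 14. DESeq2's size factors (99 and 50) and a robust prior (80 and 34) stayed within 1.5 times. Leaving out each MAVER1 library in a fit of all 12, which rests on 1 pair and takes the spread from the other lines, gave 15 to 21 falls and 1 to 10 rises: 21 and 10 without the control or the ibrutinib library (18 and 4 shared), and 15 and 1 without ironomycin or both drugs (13 and 1 shared). Of 47 named called genes, 29 kept the call with edgeR's filter, 26 with DESeq2, 29 with all 12 libraries and 9 to 11 with a library left out, and none changed sign. A log2 ratio of at least 1 in both pairs left 29 lower and 10 higher genes of 138 and 153, and edgeR's filter 201 and 236. The difference between lines, 4 genes, gave 41 against JEKO1 alone (3 shared), 5 against JVM2 alone (1 shared) and 27 in DESeq2 (4 shared). No paired analysis by replicate number was possible because each group has 1 library; the ironomycin term pairs the libraries by treatment.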

Other observations

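Some genes moved opposite ways in the pairs. A log2 ratio of at least 0.5 downward with ibrutinib alone and upward with both drugs against ironomycin was found in 87 genes, and the reverse in 19, and where the mean log2 CPM was 1 or more in 11 and 2. DDIT4, an mTOR inhibitor induced by stress, had 1425 reads in control and 914 with ibrutinib, and 2106 with ironomycin and 3044 with both drugs. CYTH4, an ARF exchange factor of blood cells, went from 806 to 376 and from 505 to 930 reads, and P2RX1, an ATP-gated channel, from 67 to 31 and from 268 to 465. MME, the surface peptidase CD10, did the reverse, from 902 to 1356 and from 638 to 322 reads, and so did SLAMF6, a SLAM-family receptor, from 241 to 357 and from 204 to 90. The difference between the pairs has no test with 1 library per treatment, and these genes were chosen for it.

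Other called falls lay outside the naming rule, and those given here were picked after their values were seen. TLR10 had 1189 reads in control and 627 with ibrutinib, and 731 with ironomycin and 279 with both drugs. LILRA4 went from 662 to 208 and from 760 to 411 reads, CLEC17A from 1168 to 566 and from 503 to 154, and PLD4, an endolysosomal nuclease, from 11150 to 6776 and from 9790 to 5255. HVCN1, a proton channel that associates with the B-cell receptor, went from 1757 to 1077 and from 2528 to 1529. The heavy chain gene IGHD went from 4800 to 3461 and from 7213 to 5268 reads, while IGHM was not called.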
